A study of Saccharomyces cerevisiae with 12 samples.

Results

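The 41 genes described here act in G2, in mitosis and in cytokinesis of budding yeast: mitotic cyclins, regulators of anaphase and mitotic exit, spindle motors and microtubule-associated proteins, and parts of the spindle pole body, the kinetochore, the cytokinetic ring and cohesin. They were chosen by name and found on the arrays through the open reading frame that each probe is annotated with. Of 6224 genes with a probe, 41 are members, each with 1 probe. Tests were run on genes whose signal stood well above background on 4 or more of the 12 arrays, which left 5827 genes and 40 members. The member left out is SPC97 (YHR172W), a component of the gamma-tubulin complex that nucleates microtubules, which was above background on 1 array of 58F and on 0 arrays of the other groups.

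In budding yeast the kinase Cdk1, bound to B-type cyclins, drives cells into mitosis. A cluster of genes that includes CLB2 itself is transcribed at G2/M by the forkhead factors, and its products build and run the late mitotic machinery. Duplicated spindle poles separate and a bipolar spindle attaches sister chromosomes through their kinetochores, while cohesin holds the sisters together. When all are attached, the anaphase-promoting complex with Cdc20 destroys securin, separase cuts cohesin, and the mitotic exit network then releases the phosphatase Cdc14, which reverses Cdk1's work. An actomyosin ring at the bud neck, inside a collar of septins, contracts to divide the cells.

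RNA of the strain L40 of Saccharomyces cerevisiae was measured on 12 single-colour arrays, 4 for each of 3 groups. The 58F group stably expressed the intrabody scFv-58F, an antibody fragment made inside the cell and directed against histone H3 acetylated at K9. The 112A group stably expressed scFv-112A, which is directed against acetylated integrase of HIV-1 and is named as the control, and the wild type (WT) expressed no intrabody. Plates and starter cultures of the 2 intrabody groups lacked leucine and those of WT were rich YPD, whereas the last overnight culture, begun at an OD600 of 0.2, was YPD for all. Nothing in the labels tells if replicates were separate cultures, so p-values measure the spread between these samples, which may be technical. The 4 arrays of a group share 1 slide and 1 scan, so slide and group cannot be told apart in any comparison here.

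A level below is a log2 signal relative to the 75th percentile of its array, and a difference between groups is a log2 change with the SE of the limma fit over all 12 arrays, with n = 4 arrays per group. Levels of different genes come from different probes and are not set against each other. A gene was called when its p, adjusted over all 5827 genes within a comparison by the Benjamini-Hochberg method, was under 0.05. Of the spots on an array, 87% to 94.7% were well above background, and the 75th percentile was 4739 to 6047 in intensity except on WT replicate 1, where it was 9362. LEU2, the gene that medium without leucine selects for, was at log2 levels of 5.64 to 6.24 on the intrabody arrays and 1.46 to 1.62 in WT. The markers of mating type a (STE2, MFA1, MFA2 and BAR1) were above background on all 12 arrays and MF(ALPHA)1 on 0. MF(ALPHA)2 exceeded the background in 2 of the 58F arrays, 1 WT array and 0 of 112A, while STE3, a receptor of the other mating type, was above background on all 12.

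The members moved in both directions and by less than 2-fold. Between the intrabody strains and WT, the cohesin subunit SMC1, the ring myosin MYO1, the midzone protein ASE1, the kinase KIN3, the kinesin KIP2 and the passenger protein SLI15 were higher with either intrabody, and the cyclins CLB1 and CLB3, the anaphase activator CDC20 and the phosphatase CDC14 were lower with either. Between the 2 intrabody strains, securin (PDS1) was higher in 58F, and the kinesin KIP1, the pole protein SPC42 and CDC20 were lower in 58F. In 58F against 112A, 10 of 40 members were called, 3 higher and 7 lower, beside 32% of all genes called, 14.1% higher and 17.9% lower. In 58F against WT, 24 members were called, 15 higher and 9 lower, beside 61.9% of all genes, 29.7% higher and 32.2% lower. In 112A against WT, 20 members were called, 15 higher and 5 lower, beside 48.3% of all genes, 22.8% higher and 25.5% lower. The shares of members called (25%, 60% and 50%) therefore lie near or below those of all genes. The split between directions leaned to higher calls in both comparisons with WT, where 37.5% of members were higher in each. Those comparisons share the WT arrays.

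The median log2 change of the 40 members was -0.022 for 58F against 112A, 0.15 for 58F against WT and 0.10 for 112A against WT, beside medians over all genes of -0.0178, -0.0119 and -0.0051. The arrays of the groups did not overlap for 11 members in 58F against 112A, where 34.5% of all genes did not overlap. For 58F against WT this held for 24 members beside 57.9% of all genes, and for 112A against WT for 15 members beside 39.8%. On each array the median departure of the members from their own means ranged from -0.0074 to 0.0508 for 58F, from -0.0565 to 0.159 for 112A and from -0.1189 to -0.0627 for WT, so all 4 WT arrays lay below the other 8. Each array measured the RNA of a whole culture, so a different share of cells in G2 or mitosis and a different amount of RNA per cell cannot be told apart.

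The count for 58F against 112A depended on single arrays. It was 6 without 58F replicate 1, 5 without 58F replicate 3 and 6 without 112A replicate 1. Without 112A replicate 2, 6 members were called higher and 4 lower. Leaving out 58F replicate 4 or 112A replicate 1 turned the median positive (0.0117 and 0.0092). The 5 members lower in 112A than in WT became 2 without 112A replicate 3, 3 without 112A replicate 4 and 3 without WT replicate 4.

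**Figure D1:**
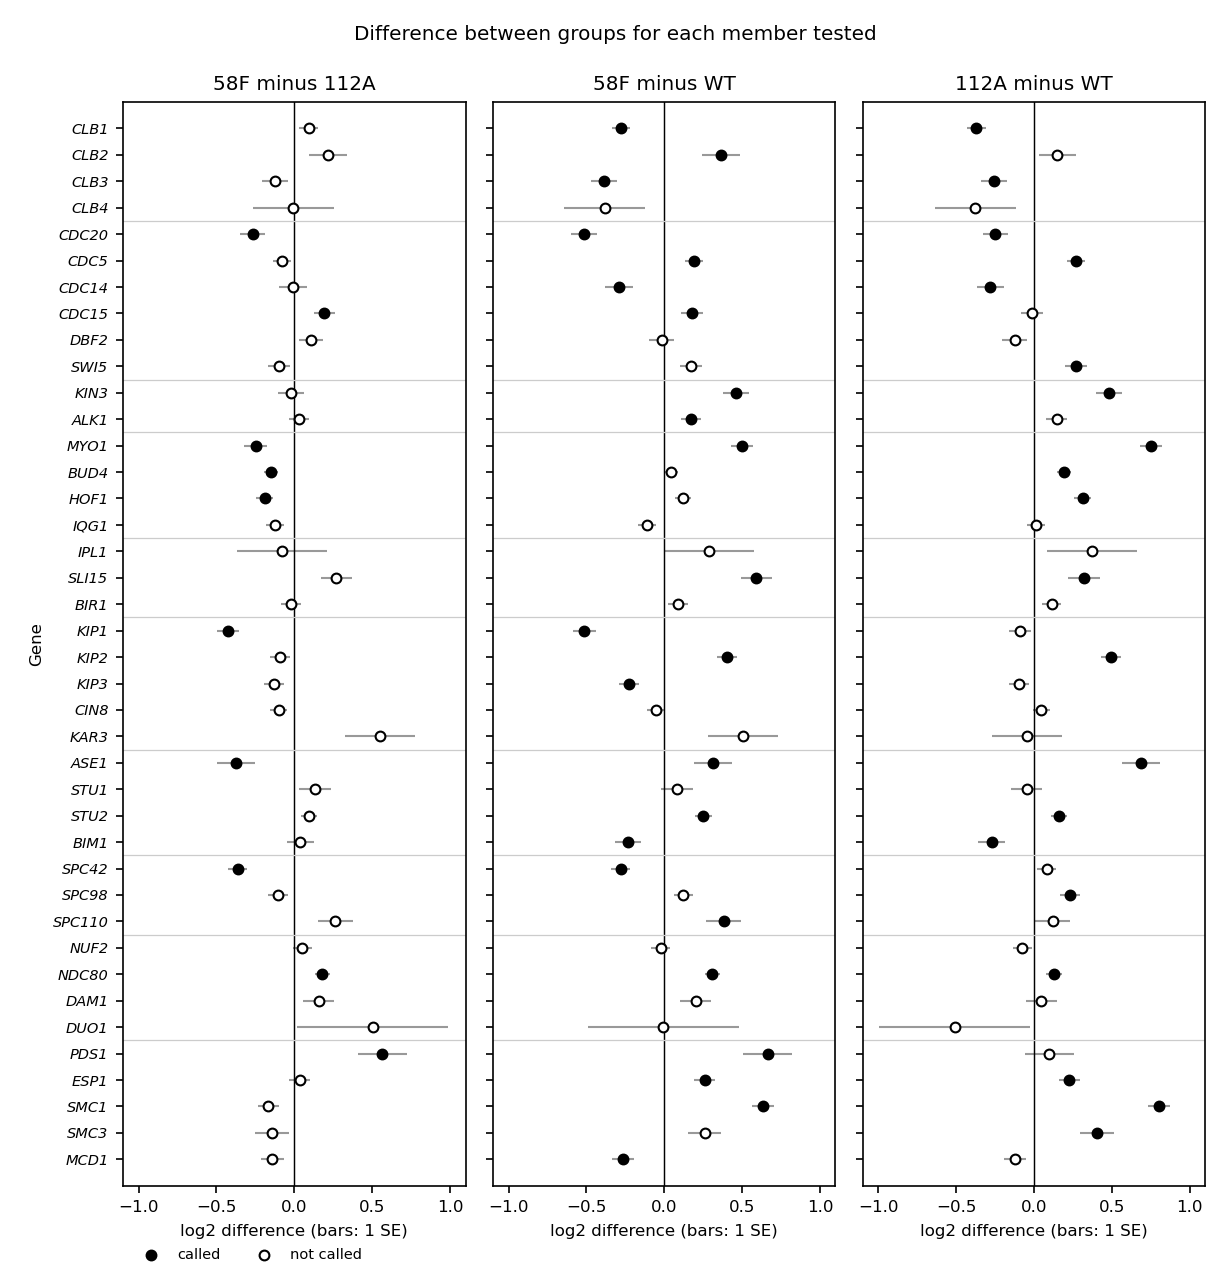
Log2 difference between groups for the 40 members tested, ordered by role, with bars of 1 SE and filled points for members called at an adjusted p under 0.05. Filled points number 10, 24 and 20 from left to right, the largest difference is 0.80 for SMC1 in 112A against WT, and no called difference reaches 1.

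The mitotic cyclins divided. Relative to WT, CLB1 and CLB3 fell in both intrabody strains, while CLB2 rose in 58F, and between the intrabody strains no cyclin was called, the lowest unadjusted p being 0.0955 for CLB2. CLB1 and CLB2 are paralogues and their products are the main cyclins of mitotic entry. CLB3 and CLB4 encode the B-type cyclins that act from S phase to spindle assembly. CLB3 (YDL155W) had log2 levels of -3.34, -3.33, -3.24 and -3.29 on the 58F arrays, -3.19, -3.15, -3.22 and -3.13 on the 112A arrays and -2.62, -3.04, -2.93 and -3.07 in WT. All WT arrays lay above all others, and 112A lay between 58F and WT with no overlap on either side. For CLB3 the log2 change was -0.38 ± 0.08 for 58F against WT (adjusted p = 0.00172) and -0.26 ± 0.08 for 112A against WT (adjusted p = 0.0227). The latter did not pass without 112A replicate 1 (adjusted p = 0.0509), whereas without WT replicate 1 the difference between the intrabody strains was called (adjusted p = 0.0407, against 0.271 with all arrays).

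CLB1 (YGR108W), chosen with CLB2 after their values were seen because the paralogues moved apart, had log2 levels of -3.45, -3.51, -3.55 and -3.48 in 58F, -3.60, -3.48, -3.71 and -3.58 in 112A and -3.32, -3.21, -3.09 and -3.26 in WT. The 4 WT arrays were the highest, and the intrabody strains overlapped each other. For CLB1 the log2 change was -0.28 ± 0.06 for 58F against WT (adjusted p = 0.00179) and -0.37 ± 0.06 for 112A against WT (adjusted p = 0.000479). CLB2 (YPR119W) had log2 levels of -4.60, -4.59, -4.82 and -4.66 in 58F, -4.85, -4.49, -5.13 and -5.06 in 112A and -5.17, -4.94, -5.02 and -4.99 in WT. Here 58F lay above WT on every array, and 112A overlapped both. For CLB2 the log2 change was 0.36 ± 0.12 for 58F against WT (adjusted p = 0.0190), and that call was lost without WT replicate 1 (adjusted p = 0.0514). For 112A against WT its change was 0.15 ± 0.12 (adjusted p = 0.327), and CLB2 was above background on 3 of the 4 arrays of 112A. CLB2 was called between the intrabody strains only when 112A replicate 2 was left out among single arrays (adjusted p = 0.0102, against 0.186 with all). It was also called there with quantile and with cyclic loess normalization, and over all alternatives its change ranged from -0.04 to 0.35. With normexp background correction CLB2 was called in 112A against WT (adjusted p = 0.00693), so its calls depended on the processing. CLB4 (YLR210W) was above background on 3, 2 and 4 arrays of 58F, 112A and WT, and its change against WT was -0.38 ± 0.26 in each intrabody strain, which did not pass.

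Because the cyclin paralogues moved apart, the difference between the members of a pair was taken within each array for CLB1 and CLB2, for CLB3 and CLB4, and for the paired kinesin motors KIP1 and CIN8. The size of such a difference depends on the probes, and only its change between groups is read. The log2 signal of CLB1 minus that of CLB2 was 1.17 ± 0.08 in 58F, 1.29 ± 0.21 in 112A and 1.81 ± 0.10 in WT (SD, n = 4). Every WT array lay above every intrabody array. The mean difference stood apart from that of WT by -0.64 in 58F and by -0.52 in 112A. These pairs were chosen after the values were seen, so the differences are read as a description. An exact permutation test over the arrays did not pass for either after adjustment over 9 tests (adjusted p = 0.0643 for both). With 4 arrays per group its smallest possible unadjusted p is 0.0286, which both reached. Even complete separation of the groups therefore did not pass this adjustment, and no conclusion is drawn from the test. For CLB3 minus CLB4 the groups overlapped in each comparison.

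**Figure D2:**
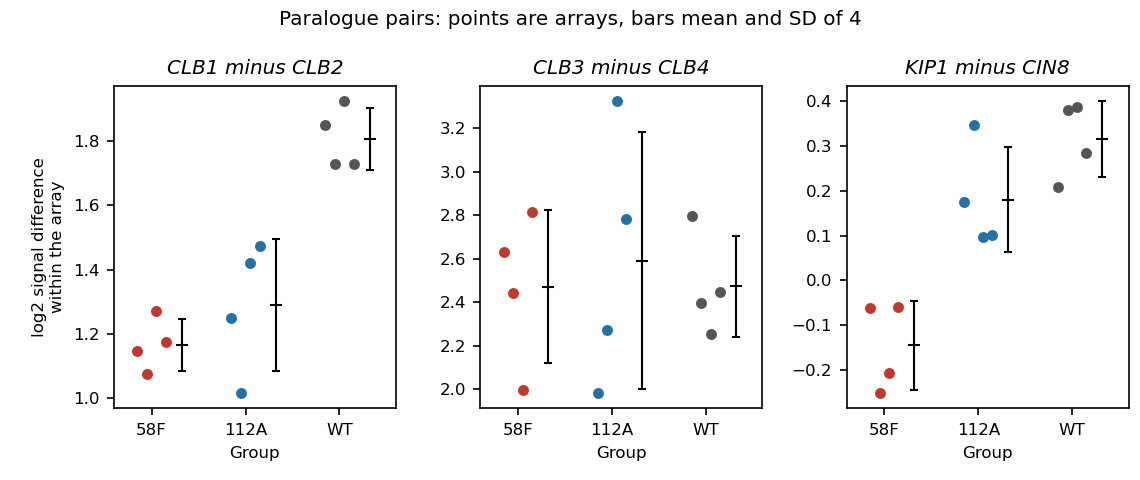
Difference in log2 signal between paralogues within each array, with 1 point per array and bars for the mean and SD of 4 arrays in each group. The 4 WT points of CLB1 minus CLB2 lie above all 8 intrabody points, the 4 58F points of KIP1 minus CIN8 lie below all others, and the groups overlap for CLB3 minus CLB4.

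Among the 6 regulators of anaphase onset and mitotic exit, CDC20 fell in each comparison, CDC14 fell and CDC5 rose in both intrabody strains against WT, CDC15 rose in 58F, and SWI5 rose in 112A. CDC20 (YGL116W) encodes the activator that turns the anaphase-promoting complex on securin. It had log2 levels of -4.45, -4.22, -4.48 and -4.37 in 58F, -4.07, -3.98, -4.19 and -4.22 in 112A and -3.68, -3.99, -3.94 and -3.85 in WT. The 58F arrays were the lowest, although 58F replicate 2 and 112A replicate 4 were level at -4.22, and WT was the highest with a single overlap into 112A. The means of the 3 groups stood in steps. The log2 change was -0.52 ± 0.08 for 58F against WT (adjusted p = 0.000188), -0.27 ± 0.08 for 58F against 112A (adjusted p = 0.0262) and -0.25 ± 0.08 for 112A against WT (adjusted p = 0.0246). The first held with each array left out. The difference from 112A was lost without 58F replicate 1 or 3 or 112A replicate 1 or 2 (adjusted p of 0.0643 to 0.0762), and that of 112A against WT without 112A replicate 3 or 4 or WT replicate 1 or 4 (adjusted p of 0.0502 to 0.0683). Both were also lost for CDC20 with normexp background correction (adjusted p of 0.0731 and 0.203), and the former with quantile normalization (adjusted p = 0.0820).

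CDC5, the polo kinase that promotes anaphase and exit, was at mean log2 levels of -3.96 ± 0.06 in 58F, -3.88 ± 0.10 in 112A and -4.15 ± 0.08 in WT (SD, n = 4). Both intrabody strains lay above WT with no overlap, with log2 changes of 0.19 ± 0.06 (adjusted p = 0.0145) and 0.27 ± 0.06 (adjusted p = 0.00308). CDC14, the exit phosphatase, was lower than in WT by a log2 change of -0.29 ± 0.09 in 58F (adjusted p = 0.0125) and -0.28 ± 0.09 in 112A (adjusted p = 0.0196), also with no overlap. Both calls of CDC14 were lost with normexp background correction (adjusted p of 0.0833 and 0.196), and the second without 112A replicate 3 (0.0511) or 4 (0.0524). CDC15, a kinase of the mitotic exit network, stood higher in 58F, by 0.19 ± 0.07 against 112A (adjusted p = 0.0492) and by 0.18 ± 0.07 against WT (adjusted p = 0.0385).

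These calls of CDC15 were close to the threshold. The call against 112A was lost without any of the 4 58F arrays, without 112A replicate 1, 2 or 4 and without WT replicate 2 or 3 (adjusted p of 0.0530 to 0.134). The call against WT was lost without 58F replicate 1, 2 or 4 or WT replicate 2, 3 or 4 (adjusted p of 0.0594 to 0.110). Its partner kinase DBF2 was not called, with a log2 change of -0.02 for 58F against WT and a 95% interval of -0.19 to 0.16. SWI5, a transcription factor that enters the nucleus at exit and turns on genes of the next G1, was higher in 112A than in WT (0.27 ± 0.07, adjusted p = 0.00951). Its change of 0.17 in 58F against WT did not pass (adjusted p = 0.0572), although it did without 112A replicate 1 (0.0407) or WT replicate 4 (0.0205). That change passed under 8 of 23 alternatives, among them normexp background correction and quantile and cyclic loess normalization.

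**Figure D3:**
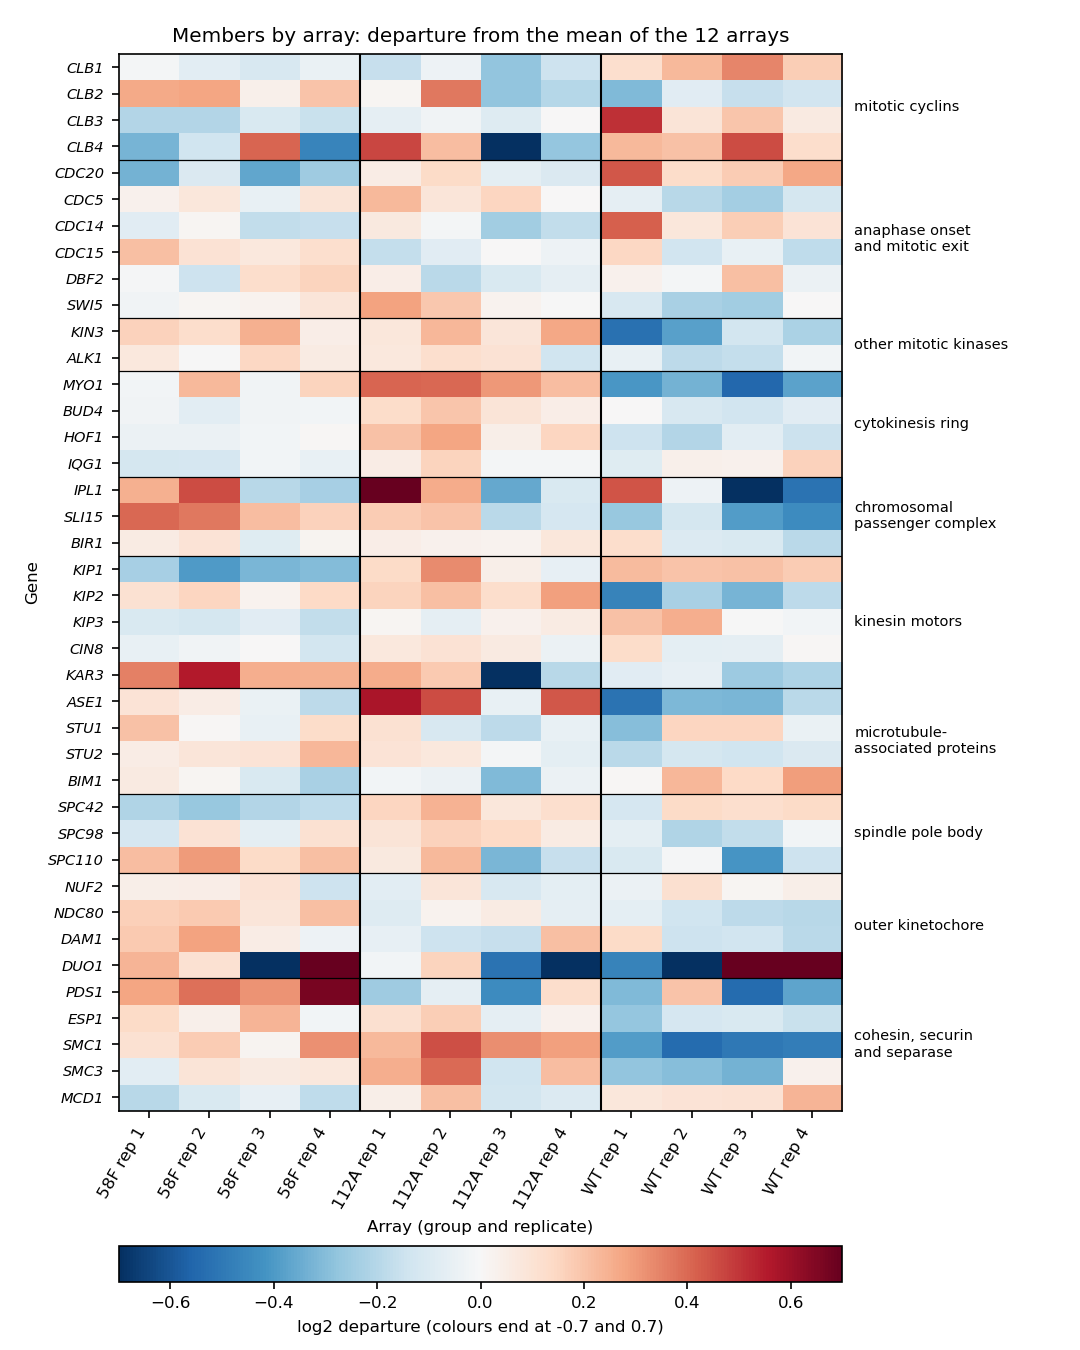
Departure of each of the 40 members (rows, by role) from its own mean over the 12 arrays (columns), in log2 units, with red for higher and blue for lower and colours that end at -0.7 and 0.7. SMC1, MYO1, KIN3 and KIP2 are blue on the 4 WT arrays, and KIP1 and SPC42 are blue on the 4 58F arrays, while DUO1 and IPL1, dim in every group, vary between arrays of 1 group.

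The other mitotic kinases are KIN3, related to the NIMA kinases, and ALK1, related to haspin. KIN3 (YAR018C) had log2 levels of -3.67, -3.70, -3.58 and -3.78 in 58F, -3.75, -3.60, -3.74 and -3.56 in 112A and -4.35, -4.21, -3.96 and -4.05 in WT. The intrabody strains overlapped each other and both lay above every WT array. For KIN3 the log2 change was 0.46 ± 0.08 for 58F against WT (adjusted p = 0.000513) and 0.48 ± 0.08 for 112A against WT (adjusted p = 0.000721). Between the intrabody strains it was -0.02, with a 95% interval of -0.20 to 0.16. ALK1 was higher in 58F than in WT by 0.17 ± 0.07 (adjusted p = 0.0352). That call did not hold without 58F replicate 1, 3 or 4 or WT replicate 2 or 3 (adjusted p of 0.0564 to 0.0953). In 112A against WT its change of 0.14 did not pass (adjusted p = 0.0862), except without 112A replicate 4 (0.0137) or with the authors' deposited values.

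Of the 4 genes of the cytokinetic ring, MYO1, BUD4 and HOF1 were highest in 112A: all 3 rose against WT in 112A and all 3 were lower in 58F than in 112A. MYO1 (YHR023W) encodes the heavy chain of the ring's type II myosin. Its log2 levels were -3.64, -3.40, -3.65 and -3.47 in 58F, -3.22, -3.22, -3.32 and -3.41 in 112A and -4.03, -3.95, -4.18 and -4.00 in WT. Both intrabody strains lay above WT on every array, and 58F overlapped 112A at its upper end. For MYO1 the log2 change was 0.75 ± 0.07 for 112A against WT (1.68-fold, adjusted p = 1.48e-05), 0.50 ± 0.07 for 58F against WT (1.42-fold, adjusted p = 9.79e-05) and -0.25 ± 0.07 for 58F against 112A (adjusted p = 0.0213).

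BUD4, an anillin-like protein of the bud neck, was higher in 112A than in WT by 0.19 ± 0.05 (adjusted p = 0.00457) and lower in 58F than in 112A (-0.15 ± 0.05, adjusted p = 0.0254). HOF1, an F-BAR protein that joins the ring late, was higher in 112A than in WT by 0.31 ± 0.05 (adjusted p = 0.000606) and lower in 58F than in 112A (-0.19 ± 0.05, adjusted p = 0.0164). In 58F against WT the change of BUD4 was 0.04 and that of HOF1 was 0.12, and neither passed, although HOF1 did without 112A replicate 2 (adjusted p = 0.0435) or 3 (0.0323). HOF1 passed there under 8 of 23 alternatives, among them normexp background correction and quantile and cyclic loess normalization. IQG1, the IQGAP scaffold of the ring, was not called with all arrays, and without WT replicate 1 it was lower in 58F than in WT (adjusted p = 0.0345). The lower levels in 58F than in 112A were the less stable part. The call of MYO1 was lost without 58F replicate 1 (0.0645) or 3 (0.0644) or 112A replicate 1 (0.0628). That of BUD4 was lost without 58F replicate 1, 2 or 3 or 112A replicate 1 or 2 (adjusted p of 0.0504 to 0.0739). With normexp background correction MYO1 and BUD4 lost it (adjusted p of 0.111 and 0.0800), and with quantile normalization MYO1 and HOF1 did (0.0774 and 0.0647).

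**Figure D4:**
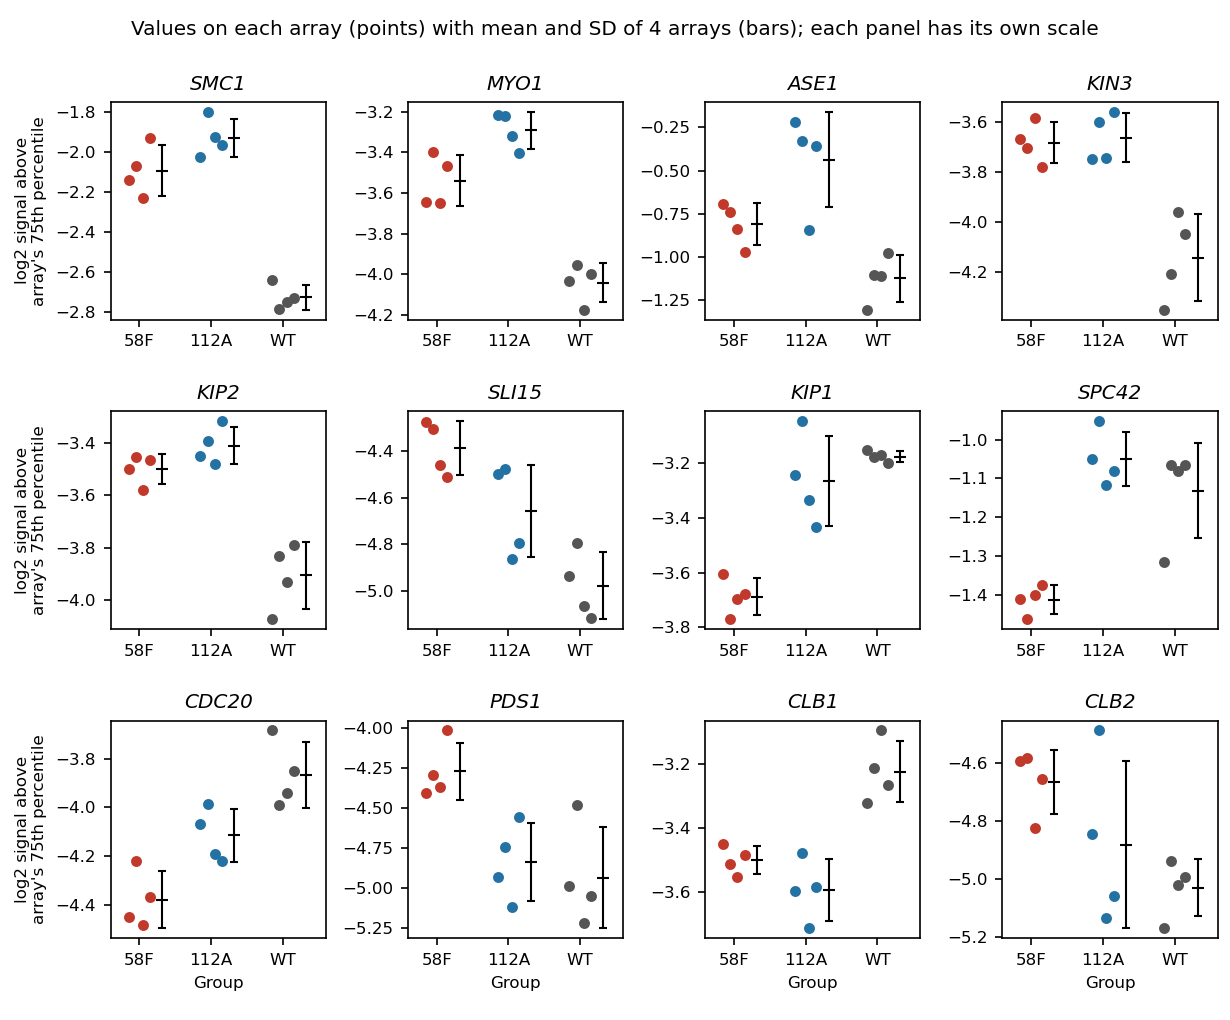
Log2 level relative to the 75th percentile of the array for 12 members, with 1 point per array, bars for the mean and SD of 4 arrays, and a separate vertical scale in each panel. The groups do not overlap between WT and either intrabody strain for SMC1, MYO1, ASE1, KIN3, KIP2 and CLB1. For ASE1 the nearest points, of 58F replicate 4 and WT replicate 4, are at -0.971 and -0.976. The 58F points stand below both other groups for KIP1 and SPC42 and above both for PDS1. For CDC20 they stand below WT, and the highest 58F point is level with the lowest of 112A.

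In the chromosomal passenger complex, which corrects faulty attachments of chromosomes to the spindle, SLI15 rose and the other members were not called. SLI15 (YBR156C) encodes the INCENP-like subunit that binds the aurora kinase Ipl1. It had log2 levels of -4.27, -4.30, -4.46 and -4.51 in 58F, -4.50, -4.48, -4.86 and -4.79 in 112A and -4.94, -4.79, -5.07 and -5.12 in WT. All 58F arrays lay above all WT arrays, and 112A overlapped both. For SLI15 the log2 change was 0.59 ± 0.10 for 58F against WT (1.51-fold, adjusted p = 0.000350) and 0.32 ± 0.10 for 112A against WT (adjusted p = 0.0216). The second was lost without 112A replicate 1 or 2 or WT replicate 3 or 4 (adjusted p of 0.0583 to 0.0655). Between the intrabody strains the change of 0.27 did not pass (adjusted p = 0.0606), but it did without 112A replicate 1 (0.0489) or 2 (0.0317). It also passed with quantile and with cyclic loess normalization. IPL1 was above background on only 2 arrays of each group and its SE was 0.29. BIR1, the survivin-like subunit, changed by 0.11 or less in size and passed only without WT replicate 1 among single arrays, in both comparisons with WT (adjusted p of 0.0176 in 58F and 0.0121 in 112A). In 112A against WT it also passed with normexp background correction.

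Of the 5 kinesin motors, KIP1 was lower in 58F than in either other group, KIP3 was lower in 58F than in WT, KIP2 was higher in both intrabody strains than in WT, and CIN8 and KAR3 were not called. KIP1 (YBL063W) and CIN8 encode the paired motors that slide spindle poles apart. KIP1 had log2 levels of -3.61, -3.77, -3.70 and -3.68 in 58F, -3.24, -3.05, -3.33 and -3.43 in 112A and -3.15, -3.18, -3.17 and -3.20 in WT. All 4 58F arrays lay below the other 8, and 112A spread around the narrow range of WT. For KIP1 the log2 change was -0.42 ± 0.07 for 58F against 112A (1.34-fold, adjusted p = 0.00135) and -0.51 ± 0.07 for 58F against WT (1.43-fold, adjusted p = 7.57e-05), and both calls held with each array left out. The change of 112A against WT was -0.09, which passed only without 112A replicate 2 among single arrays (adjusted p = 0.0349).

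CIN8 (YEL061C) changed by -0.10 in 58F against 112A, with a 95% interval of -0.22 to 0.02, and by -0.05 in 58F against WT, with an interval of -0.17 to 0.07. The log2 signal of KIP1 minus that of CIN8 was -0.14 ± 0.10 in 58F, 0.18 ± 0.12 in 112A and 0.32 ± 0.08 in WT (SD, n = 4). The 4 58F arrays lay below all others. The mean difference in 58F stood apart by -0.32 from 112A and by -0.46 from WT, again as a description.

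KIP2 (YPL155C), a plus-end motor of cytoplasmic microtubules that was chosen for its values, had log2 levels of -3.50, -3.45, -3.58 and -3.47 in 58F, -3.45, -3.39, -3.48 and -3.32 in 112A and -4.07, -3.83, -3.93 and -3.79 in WT. Both intrabody strains lay above WT and overlapped each other. Its log2 change was 0.41 ± 0.06 for 58F against WT (adjusted p = 0.000191) and 0.49 ± 0.06 for 112A against WT (adjusted p = 0.000105). KIP3, a motor that shortens microtubules, fell in 58F against WT by 0.23 on the log2 scale (SE 0.06, adjusted p = 0.00831). KAR3, a minus-end motor of mating and mitosis, was higher in 58F than in 112A by 0.55 ± 0.23 and than in WT by 0.50 ± 0.23, neither of which passed (adjusted p of 0.0800 and 0.0689). It was above background on 4 arrays of 58F, 2 of 112A and 3 of WT. The first difference of KAR3 passed without 112A replicate 1 (0.0412) or 2 (0.0440), and the second without 112A replicate 3 (0.00133). Both also passed with quantile normalization, and the second with normexp background correction.

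Among 4 microtubule-associated proteins, ASE1 and STU2 rose and BIM1 fell in both intrabody strains against WT, and STU1, the CLASP that stabilises the spindle, was not called (log2 change of 0.08 in 58F against WT, 95% interval -0.14 to 0.30). ASE1 (YOR058C) encodes the protein that bundles antiparallel microtubules in the spindle midzone. It had log2 levels of -0.69, -0.74, -0.84 and -0.97 in 58F, -0.22, -0.33, -0.84 and -0.36 in 112A and -1.31, -1.10, -1.11 and -0.98 in WT. The groups stood in steps apart from 112A replicate 3, which lay among the 58F arrays. For ASE1 the log2 change was 0.69 ± 0.12 for 112A against WT (1.61-fold, adjusted p = 0.000862), 0.31 ± 0.12 for 58F against WT (adjusted p = 0.0414) and -0.37 ± 0.12 for 58F against 112A (adjusted p = 0.0353). The first held with each array left out. The call of 58F against WT was lost without 58F replicate 1, 2 or 3 or WT replicate 1, 2 or 3 (adjusted p of 0.0651 to 0.109), and that of 58F against 112A without 58F replicate 2, 3 or 4 or 112A replicate 1, 2 or 4 (0.0557 to 0.105).

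STU2, the microtubule polymerase, was higher than in WT by 0.25 ± 0.05 in 58F (adjusted p = 0.00132) and 0.16 ± 0.05 in 112A (adjusted p = 0.0261). The second was lost without 112A replicate 1 or 2 or WT replicate 1 or 3 (adjusted p of 0.0522 to 0.0773). BIM1, the plus-end binding protein of the EB family, changed by -0.23 ± 0.09 in 58F (adjusted p = 0.0343) and -0.27 ± 0.09 in 112A (adjusted p = 0.0225) against WT. With normexp background correction neither call of BIM1 remained (adjusted p of 0.151 and 0.155). Its call in 58F was lost without 58F replicate 3 or 4 or WT replicate 2, 3 or 4 (0.0536 to 0.101), and that in 112A without 112A replicate 3 or WT replicate 2 or 4 (0.0552 to 0.0626).

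In the spindle pole body, the yeast counterpart of the centrosome, SPC42 was lower in 58F than in both other groups, SPC110 was higher in 58F than in WT and SPC98 was higher in 112A than in WT. SPC42 (YKL042W), chosen after its values were seen, encodes the protein of the central crystal on which the body is built. It had log2 levels of -1.41, -1.46, -1.40 and -1.37 in 58F, -1.05, -0.95, -1.12 and -1.08 in 112A and -1.31, -1.07, -1.08 and -1.07 in WT. All 4 58F arrays were the lowest, although WT replicate 1 came close to them. For SPC42 the log2 change was -0.36 ± 0.06 for 58F against 112A (1.29-fold, adjusted p = 0.00134) and -0.28 ± 0.06 for 58F against WT (1.21-fold, adjusted p = 0.00179), and both calls held with each array left out.

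SPC110 (YDR356W), which ties the central plaque to the gamma-tubulin complex, had log2 levels of -5.14, -5.06, -5.23 and -5.15 in 58F, -5.29, -5.13, -5.68 and -5.53 in 112A and -5.47, -5.37, -5.77 and -5.51 in WT. The 58F arrays lay above all WT arrays and overlapped 112A. Its log2 change was 0.38 ± 0.11 for 58F against WT (adjusted p = 0.0110). SPC110 was above background on 4, 2 and 3 arrays of 58F, 112A and WT, and its change of 0.26 against 112A (adjusted p = 0.0959) passed only without 112A replicate 2 among single arrays (0.0239). That change also passed with quantile and with cyclic loess normalization. With normexp background correction SPC110 was called in 112A against WT (adjusted p = 0.00409). SPC98, a partner of SPC97 in the gamma-tubulin complex, was higher in 112A than in WT by 0.23 ± 0.06 (adjusted p = 0.0112). In 58F against WT its change of 0.12 passed only without 58F replicate 1 among single arrays (0.0467, against 0.109 with all). It also passed with quantile and with cyclic loess normalization.

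In the outer kinetochore, which grips the end of the microtubule, NDC80 rose and the other 3 genes were not called. NDC80 (YIL144W) encodes a microtubule-binding subunit of the complex named after it. It had log2 levels of -2.72, -2.70, -2.80 and -2.67 in 58F, -2.97, -2.86, -2.83 and -2.95 in 112A and -2.95, -3.02, -3.07 and -3.08 in WT. The 58F arrays were the 4 highest, and 112A overlapped WT. For NDC80 the log2 change was 0.31 ± 0.05 for 58F against WT (adjusted p = 0.000201), 0.18 ± 0.05 for 58F against 112A (adjusted p = 0.0160) and 0.13 ± 0.05 for 112A against WT (adjusted p = 0.0475). The second was lost without 112A replicate 1 (0.0518). The last was lost without 58F replicate 1, 2 or 4, 112A replicate 2, 3 or 4 or WT replicate 2, 3 or 4 (adjusted p of 0.0538 to 0.115).

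NUF2, the partner of NDC80, changed by -0.02 in 58F against WT, with a 95% interval of -0.16 to 0.11, and by 0.05 in 58F against 112A, with an interval of -0.08 to 0.19. DAM1, of the ring that couples kinetochores to microtubules, was 0.20 ± 0.10 higher in 58F than in WT, which did not pass (adjusted p = 0.0977). It passed without WT replicate 1 (0.0278), with normexp background correction and with cyclic loess normalization. DUO1, of the same ring, was above background on 3, 1 and 2 arrays of 58F, 112A and WT. Its SE was 0.48, and 1 of its spots was left out as an image outlier on 58F replicate 3.

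The cohesin, securin and separase genes held the largest called member change of each comparison. Cohesin is a ring of Smc1, Smc3 and the cleavable subunit Mcd1 around sister chromosomes, separase (Esp1) cuts Mcd1, and securin (Pds1) holds separase back. SMC1 (YFL008W) had log2 levels of -2.14, -2.07, -2.23 and -1.93 in 58F, -2.02, -1.80, -1.92 and -1.96 in 112A and -2.64, -2.79, -2.75 and -2.73 in WT. All intrabody arrays lay above all WT arrays. For SMC1 the log2 change was 0.63 ± 0.07 for 58F against WT (1.55-fold, adjusted p = 1.14e-05) and 0.80 ± 0.07 for 112A against WT (1.74-fold, adjusted p = 7.89e-06). Between the intrabody strains it was -0.17 ± 0.07 (adjusted p = 0.0848), and it passed only without 58F replicate 4 among single arrays (0.0258).

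PDS1 (YDR113C) had log2 levels of -4.40, -4.29, -4.37 and -4.01 in 58F, -4.93, -4.74, -5.12 and -4.55 in 112A and -4.99, -4.48, -5.22 and -5.05 in WT. The 4 58F arrays were the highest, and the other groups overlapped. For PDS1 the log2 change was 0.57 ± 0.16 for 58F against 112A (1.48-fold, adjusted p = 0.0180) and 0.66 ± 0.16 for 58F against WT (1.58-fold, adjusted p = 0.00330), and both calls held with each array left out. In 112A against WT its change was 0.10 (adjusted p = 0.639), and it was above background on 3 arrays of 112A and on all 4 of each other group.

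ESP1 was higher than in WT by 0.26 ± 0.07 in 58F (adjusted p = 0.00549) and 0.23 ± 0.07 in 112A (adjusted p = 0.0164), with no overlap in either case. SMC3 rose in 112A against WT by 0.40 ± 0.11 (adjusted p = 0.00987). Its change of 0.26 in 58F against WT did not pass (adjusted p = 0.0549), but did without 112A replicate 2 (0.0401) or 3 (0.0156) or WT replicate 4 (0.0143). That change passed under 10 of 23 alternatives, among them quantile and cyclic loess normalization and the authors' deposited values. MCD1 went the other way: it fell in 58F against WT by 0.26 on the log2 scale (SE 0.07, adjusted p = 0.00737), and its change of -0.12 in 112A against WT passed only without 112A replicate 2 among single arrays (0.0257, against 0.180 with all). On 112A replicate 1 the 2 spots of MCD1 read 598.3 and 4308 in processed intensity, and the brighter spot is marked as an image outlier and was left out. In the authors' deposited table the value of MCD1 on that array lay 1.42 log2 units from the array's usual offset, and with the values of that table the fall in 58F was not called (adjusted p = 0.422).

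Read by direction across comparisons, 3 members were higher in 58F than in both other groups (CDC15, NDC80 and PDS1, beside 10.4% of all genes) and 3 were lower than in both (CDC20, KIP1 and SPC42, beside 13.3%). Of these, KIP1, SPC42 and PDS1 were called against both groups with each array left out and under every other setting that gave them a value. Against WT, 10 members were higher in both intrabody strains (CDC5, KIN3, MYO1, SLI15, KIP2, ASE1, STU2, NDC80, ESP1 and SMC1, beside 17.9% of all genes) and 5 were lower in both (CLB1, CLB3, CDC20, CDC14 and BIM1, beside 20.5%). Both counts against WT rest on the same WT arrays.

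By the usual time of their transcripts, 10 members belong to the CLB2 cluster of G2/M (CLB1, CLB2, CDC5, CDC20, SWI5, KIN3, ALK1, MYO1, BUD4 and HOF1) and 5 peak in late G1 (PDS1, MCD1, SMC3, SPC42 and SPC98). Of the cluster, 5 rose and 2 fell in 58F against WT, 6 rose and 2 fell in 112A against WT, and none rose and 4 fell in 58F against 112A. The cluster members called were thus 70%, 80% and 40%, beside 61.9%, 48.3% and 32% of all genes. The cluster did not move as a block: against WT, MYO1 and KIN3 rose where CLB1 and CDC20 fell. The 4 falls in 58F against 112A were 1 without 58F replicate 1, 58F replicate 3 or 112A replicate 1, and 2 without 112A replicate 2. With quantile normalization 1 cluster member rose and 1 fell in that comparison, with normexp background correction 1 fell, and with cyclic loess 1 rose and 4 fell. The cluster's median log2 change there, -0.09, was 0.02 with quantile normalization. The 2 falls in 112A against WT were 1 without 112A replicate 3 or 4 or WT replicate 1 or 4. Of the late G1 genes, PDS1 rose while SPC42 and MCD1 fell in 58F against WT, and SMC3 and SPC98 rose in 112A against WT.

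Other genes of the same pathways also moved in both directions. Of 126 of 129 listed genes that were tested, 33 rose and 26 fell in 58F against WT, 33 rose and 21 fell in 112A against WT, and 14 rose and 14 fell in 58F against 112A. The shares called were 46.8%, 42.9% and 22.2%, below the 61.9%, 48.3% and 32% of all genes. Without 58F replicate 1 or 2 the last rises were 9 or 7. The last falls were 9, 7 and 9 without 58F replicate 1, 58F replicate 3 and 112A replicate 1, and 24 without WT replicate 1. HSK3 has no probe on the array, and CTF13 and BRN1 were not tested. In 58F against 112A, 2 rose and 1 fell of the other CLB2 cluster genes and their regulators (33.3% called). Of the septin and other cytokinesis genes 3 rose and 1 fell (36.4%), as of the other cohesin and condensin genes (40%). Each other list had a share below the 32% of all genes. In the anaphase-promoting complex 0 rose and 3 fell (21.4%). With single arrays left out, those falls were 1 to 6 and the septin list's rises 1 to 3.

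Of the 9 other CLB2 cluster genes and their regulators, 1 rose and 2 fell in 58F against WT and 1 rose and 1 fell in 112A against WT. The shares called, 33.3% and 22.2%, lie below the 61.9% and 48.3% of all genes. NDD1, the activator that works with the forkhead factors on the cluster, was lower than in WT in 58F (-0.43 ± 0.07, adjusted p = 0.000239) and in 112A (-0.35 ± 0.07, adjusted p = 0.00178). MOB1, the partner of the kinase Dbf2, was higher in 58F than in WT by 0.40 ± 0.05 (adjusted p = 2.08e-05) and than in 112A by 0.26 ± 0.05 (adjusted p = 0.00174). Of 7 other genes that control Cdk1, 1 rose and 1 fell in 58F and 2 rose and 1 fell in 112A against WT, and the fall was that of SWE1, the inhibitory kinase, in both. The shares called in that list, 28.6% and 42.9%, also lie below those of all genes. SWE1 changed by -0.32 ± 0.06 in 58F (adjusted p = 0.000506) and -0.24 ± 0.06 in 112A (adjusted p = 0.00569).

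In the anaphase-promoting complex, which Cdc20 activates, 1 of 14 genes rose and 6 fell in 58F against WT, with a median log2 change of -0.16, and 2 rose and 4 fell in 112A against WT. The shares called, 50% and 42.9%, lie below the 61.9% and 48.3% of all genes, and 42.9% and 28.6% were lower, beside 32.2% and 25.5%. The rises in 112A were 1 without 112A replicate 3 or WT replicate 2, 3 or 4. The largest rise of the list against WT was that of MND2, by 0.41 in 58F and 0.36 in 112A. CDC26, a small subunit, was 2.30-fold lower in 58F than in WT (-1.20 ± 0.15, adjusted p = 2.8e-05) and 1.85-fold lower in 112A (-0.89 ± 0.15, adjusted p = 0.000544). CDC27, a subunit that binds the activators, changed by -0.50 ± 0.07 in 58F against WT (adjusted p = 7.83e-05). Of 6 genes of the spindle checkpoint, which holds Cdc20 back until chromosomes are attached, 2 rose and 2 fell in 58F and 3 rose and 1 fell in 112A against WT. The share called was 66.7% in each, beside 61.9% and 48.3% of all genes. MAD3 was higher in 58F than in WT by 0.54 ± 0.05 (adjusted p = 6.72e-06) and than in 112A by 0.33 ± 0.05 (adjusted p = 0.00126). Of 8 other mitotic exit genes, 3 rose and 1 fell in 58F and 2 rose in 112A against WT, and the shares called, 50% and 25%, lie below those of all genes. SLK19, of the early release of Cdc14, was 2.01-fold higher in 58F (1.01 ± 0.07, adjusted p = 5e-07) and 1.93-fold higher in 112A (0.95 ± 0.07, adjusted p = 2.47e-06) than in WT. BFA1 was the only gene of that list called between the intrabody strains, 0.78 ± 0.24 higher in 58F (adjusted p = 0.0250). It was above background on 3, 1 and 2 arrays of 58F, 112A and WT. With some single arrays left out, no gene of the list was called higher there.

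Among other kinetochore genes, 5 of 23 rose and 4 fell in 58F against WT and 6 rose and 5 fell in 112A against WT. The shares called, 39.1% and 47.8%, lie below the 61.9% and 48.3% of all genes. The 6 rises were 3 to 5 with any single array left out, and 3 without 112A replicate 2 or WT replicate 2 or 4. In 58F against WT the largest change of the list was the rise of MTW1 (1.02 ± 0.13, 2.02-fold, adjusted p = 4.33e-05). MTW1 rose by 0.59 ± 0.13 in 112A against WT (adjusted p = 0.0032), and its change between the intrabody strains was 0.42 ± 0.13 (adjusted p = 0.0281). It was above background on 4, 2 and 2 arrays of 58F, 112A and WT. MIF2, of the centromere-proximal kinetochore, was lower in 58F than in WT (-0.75 ± 0.10, adjusted p = 6.38e-05). Of 12 other spindle pole body genes, 2 rose and 2 fell in 58F and 1 rose and 1 fell in 112A against WT. The shares called in that list, 33.3% and 16.7%, lie below those of all genes. MPS3 was lower in both comparisons (-0.40 ± 0.06 and -0.32 ± 0.06, adjusted p of 9.59e-05 and 0.000804). Of 13 tubulin, dynein and other microtubule genes, 4 rose and 3 fell in each comparison with WT, and the rises in 58F were 2 without 58F replicate 4 or WT replicate 2. The share called was 53.8% in each, beside 61.9% and 48.3% of all genes. NIP100, of the dynactin complex, was lower in 58F (-0.78 ± 0.04, adjusted p = 5.98e-08) and in 112A (-0.72 ± 0.04, adjusted p = 2.46e-07) than in WT. NUM1, the cortical anchor of dynein, was lower in 58F than in WT by a log2 change of -0.87 ± 0.09 (adjusted p = 5.98e-06) and than in 112A by -0.46 ± 0.09 (adjusted p = 0.00246).

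Of 10 genes of cohesin and condensin outside the members, 6 rose and 1 fell in 58F against WT, and 5 rose and 1 fell in 112A. The shares called were 70% and 60%, beside 61.9% and 48.3% of all genes. IRR1, the remaining subunit of the cohesin ring complex, rose by 0.72 ± 0.08 in 58F (adjusted p = 1.6e-05) and 0.64 ± 0.08 in 112A (adjusted p = 9.92e-05). SMC2, of condensin, was higher in 58F than in WT by 0.72 ± 0.07 (adjusted p = 3.16e-06) and than in 112A by 0.42 ± 0.07 (adjusted p = 0.000961), while PDS5, a regulator of cohesin, was higher in 112A than in WT by 0.78 ± 0.09 (adjusted p = 5.03e-05). Of 11 septin and other cytokinesis genes, 4 rose and 2 fell in 58F and 3 rose and 2 fell in 112A against WT. The shares called in that list, 54.5% and 45.5%, lie below those of all genes. The septin CDC3 was higher than in WT by 0.62 ± 0.05 in 58F (adjusted p = 2.2e-06) and 0.63 ± 0.05 in 112A (adjusted p = 7.08e-06). The septin CDC10 rose by 0.61 ± 0.06 in 58F (adjusted p = 4.18e-06) and 0.41 ± 0.06 in 112A (adjusted p = 0.000202).

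For the neighbouring phase of the cycle, 34 of 35 genes of G1/S and DNA replication were tested. Of these, 13 rose and 4 fell in 58F against WT, 14 rose and 3 fell in 112A against WT, and 2 rose and 2 fell in 58F against 112A. The shares called were 50%, 50% and 11.8%, beside 61.9%, 48.3% and 32% of all genes, and 38.2% and 41.2% were higher than in WT, beside 29.7% and 22.8%. The median log2 change against WT was 0.17 in 58F and 0.20 in 112A, beside 0.15 and 0.10 for the mitotic members. In 58F against 112A the G1/S genes held 1 change of over 0.5 in size: RNR1, the large subunit of ribonucleotide reductase, was lower in 58F by a log2 change of -0.56 ± 0.11 (adjusted p = 0.00297). The falls in 58F against 112A were 1 without 58F replicate 3, 6 without 112A replicate 3 and 4 without WT replicate 1, and those in 112A against WT were 1 without 112A replicate 2, 112A replicate 3 or WT replicate 2.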

How the data were processed

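Values came from Agilent Feature Extraction 10.7.3.1, named with its version per the file headers. The deposited processed signal is a Cy3 intensity with local background subtracted and spatial trend removed within the array, per the file headers, without scaling from array to array. The authors also deposited log2 values for 5297 probes, whose 75th percentile is 12.804 on each array; what centring they used is not given in the sources used here, and 31 of the 41 members are in that table. From the processed signal, log2 was taken, the 75th percentile over all gene spots was subtracted, spots marked as image outliers were left out (25 to 125 per array) and each probe's 2 spots were averaged. No spot was saturated (0 on every array). Of genes with several probes the brightest was used.

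The fit was lmFit and eBayes of limma 3.58.1 in R 4.3.3, 2-sided, tested on simulated data first. The number of arrays limits the precision. Values on all arrays are given for members called with a log2 change of at least 0.5 in size and for the largest called change of each other role; members outside this rule are said to be chosen for their values. Up to 3 called genes of each other list were named. The total over the other lists includes 1 list that is not reported here on its own. The members and lists were chosen with earlier results of these data known. Files and annotation name different builds, so no coordinates are given.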

Additional observations from a re-analysis of the deposited data

Results flagged for a closer look

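In 6 of 120 groups of 4 arrays among the tested members, a single array lay far from the other 3 of its group by Dixon's criterion, and chance alone gives about 5% of groups. BUD4 was at a log2 level of -2.39 on 58F replicate 2, against -2.35 to -2.34 on the other 58F arrays. BIM1 was at -3.28 on 112A replicate 3, against -3.01 to -2.98 on the others. SPC42 was at -1.31 on WT replicate 1, against -1.08 to -1.07, and its fall in 58F was called without that array too. SMC3 was at -4.46 on 58F replicate 1, against -4.33 to -4.30, and at -4.36 on WT replicate 4, against -4.72 to -4.67. MCD1 was at -2.92 on WT replicate 4, against -3.08 to -3.06.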

How the results depend on the processing

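Of 54 member comparisons called, 33 were called under every alternative that gave a value, 21 were lost under at least 1 and 0 changed sign. Of 66 not called, 22 were called under at least 1. With single arrays left out, the members called numbered 5 to 11 for 58F against 112A, 20 to 27 for 58F against WT and 16 to 20 for 112A against WT, and all genes called 1396 to 2258, 3290 to 3691 and 2376 to 2858. Under the other settings the members called stayed within 1.5 times the main counts, while their split moved. In 58F against 112A, 7 were higher and 4 lower with quantile normalization, 5 and 7 with cyclic loess and 3 and 4 with normexp. With the authors' deposited values 1 was higher and 7 were lower, among the 31 members in that table. PDS1, 1 of the 3 members called higher in the main fit, has no value there. In 112A against WT, 2 rather than 5 were lower with normexp. The cause of these shifts among members with a value was not tested. The files hold no mean signal, so normexp was run on the median signal, and the 75th percentile was also taken without the outlier spots, both chosen after seeing the data. Since each slide holds 1 group, slide as a block was not run.

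With the replicate block, 11 members were called for 58F against 112A (5 higher, 6 lower), 23 for 58F against WT and 19 for 112A against WT. The block added the calls of KAR3 in 58F against 112A (adjusted p = 0.0447) and WT (0.0340), SLI15 (0.00682) and SPC110 (0.0205) in 58F against 112A, IPL1 in 112A against WT (0.0337) and SMC3 in 58F against WT (0.0468). It ended those of CDC15 (0.0567), ALK1 (0.0607) and ASE1 (0.0514) in 58F against WT, CDC15 (0.0732) and BUD4 (0.0529) in 58F against 112A, and STU2 (0.0561) and NDC80 (0.0899) in 112A against WT. The labels give the number no meaning beyond the replicate, so the main fit did not pair the arrays by it. Same-numbered arrays deviated with correlations of -0.17 to 0.19, of which 10 of 12 were positive and 5 exceeded 0.1. For other pairs the correlations were -0.30 to 0.25, of which 14 of 36 were positive and 9 exceeded 0.1. Positive correlations were thus more frequent between same-numbered arrays, and their source was not tested. The deviations were taken from each group's mean and cancel within a group. The counts for same-numbered and for other pairs are therefore not independent. Replicates 1 and 2 had more spots well above background than replicates 3 and 4 in each group (91.9% to 94.7% against 87% to 90.9%), and IPL1 was lower on replicates 3 and 4 in each group.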
